A study of Mus musculus with 11 samples.

Results

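Colonic epithelial cells make reactive oxygen and nitrogen species with a small set of enzymes, and the mRNAs of 7 genes of this set were examined in RAG KO mice with colitis. The genes are Nox1 with its partners Noxa1, Noxo1 and Cyba, Duox2 with its maturation factor Duoxa2, and the inducible nitric oxide synthase Nos2. They were chosen by symbol, and all 7 of them were found among the 52550 genes of the count table and passed the expression filter that left 15044 genes for testing. The cells came from 6 FFD mice, fed a purified diet without fiber, and from 5 CD mice, whose otherwise identical diet held 7% cellulose as its single fiber. All 11 mice were on the C57BL/6 background and lacked Rag1, without which no mature T or B cells form. All had received their diet for 4 weeks and then 1.5% DSS (dextran sulfate sodium, which damages the lining of the colon) in drinking water for 5 days. The comparison is of epithelial mRNA levels after this injury between the diets, in mice without adaptive lymphocytes. It holds no animals without DSS, so a difference present before DSS cannot be told apart from a changed response to it. The paper reports that RAG KO mice fed cellulose resisted this colitis better than those without it, so severity differed along with diet. The part of severity in the changes below was not tested. The cells were shaken off the colon in DTT and EDTA and collected on a Percoll gradient, so they are a bulk preparation in which fewer cells of a type and less RNA per cell cannot be told apart. All CD titles carry a 1 and all FFD titles a 2 before the mouse number, and a cage or batch that followed it cannot be told apart from the diet.

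The total count was 10374154 to 27973285 (median 24261218) per FFD mouse and 20853535 to 28588266 (median 25543054) per CD mouse. The epithelial markers Epcam, Krt8, Krt18, Cdh1 and Vil1 summed to 8758 to 11033 CPM in FFD mice and to 7483 to 8817 CPM in CD mice, where CPM are the counts of a gene relative to its TMM-normalized library total. The 9 markers of T and B cells summed to 1.61 to 2.46 CPM in FFD mice and 1.64 to 2.41 CPM in CD mice. The 13 macrophage and monocyte markers in the table summed to 131 to 163 CPM in FFD mice and 88.1 to 130 CPM in CD mice. The 10 neutrophil markers summed to 67.7 to 227 CPM in FFD mice and 24.4 to 66.4 CPM in CD mice. Most of these sums were a single gene each, Cd14 with 79.9% and Ly6g with 94.0%, and without these genes the ranges of the diets overlapped. No marker of these lists was at 0 counts over all mice.

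As background, NADPH oxidases move electrons from NADPH across a membrane to oxygen. Nox1, the main oxidase of colonic epithelium, makes superoxide. It sits in the membrane with Cyba and works when Noxo1, the organizer, brings Noxa1, the activator, and the GTPase Rac1 to it. Duox2 releases hydrogen peroxide at the apical surface and needs Duoxa2 to leave the endoplasmic reticulum. Nos2 makes nitric oxide from arginine with tetrahydrobiopterin as a cofactor, and both Duox2 and Nos2 are known as genes that microbes and inflammatory cytokines induce in the gut.

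With the fiber-free diet the catalytic gene Nox1 fell, while its organizer Noxo1, the Duox2 and Duoxa2 pair and Nos2 rose. The activator Noxa1 fell by a small amount, and the shared membrane subunit Cyba did not pass the test. Of the 7 genes, 4 were called as higher and 2 as lower in FFD mice at a threshold of 0.05 on the adjusted p, by edgeR's quasi-likelihood test with Benjamini-Hochberg adjustment over all 15044 genes. Over all tested genes 36.8% were called, 18.2% as higher and 18.6% as lower in FFD mice. The median log2 fold change of the 7 genes was 0.39, and that of all tested genes was -0.03. In 3 genes every FFD mouse lay above every CD mouse, in 1 gene every FFD mouse lay below, and in 3 genes the diets overlapped. The diets did not overlap in 18.5% of all tested genes, with FFD above in 8.91% and below in 9.59%. In the list of 15044 log2 fold changes Nox1 stood at percentile 0.179 and Nos2 at percentile 99.7, so both were near the ends of the whole distribution.

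**Figure D1:**
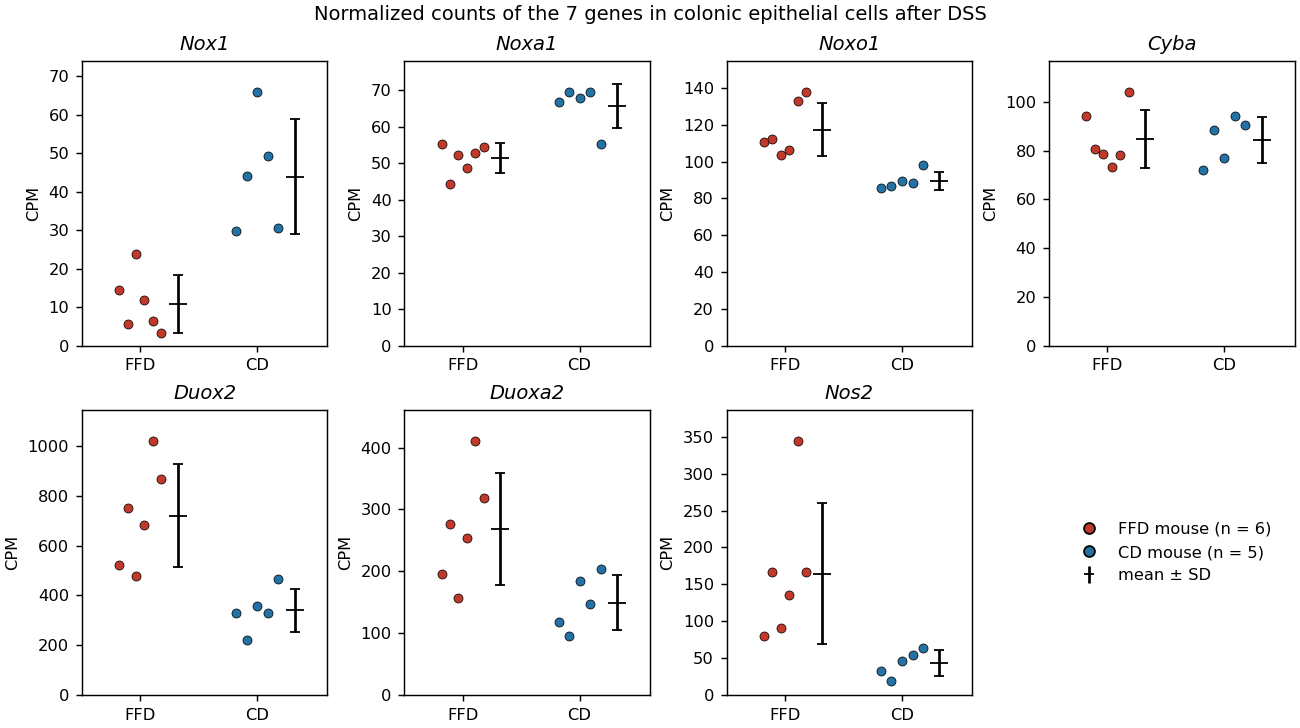
Normalized counts (CPM) of the 7 genes in each mouse, FFD (red, 6 mice) left of CD (blue, 5 mice), with the mean and SD as a black bar. All FFD mice lie below all CD mice for Nox1 and above them for Noxo1, Duox2 and Nos2, and the diets overlap for Noxa1, Cyba and Duoxa2.

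Nox1 (X, 134086421 to 134221956, minus strand, GRCm38) had a lowest value of 3.35, a median of 9.16 and a highest value of 23.8 CPM in FFD mice. The 5 CD mice had 29.8, 44.1, 66.0, 49.2 and 30.6 CPM. The ranges did not meet, and the FFD mouse nearest to the CD mice was mouse 3. The mean was 10.97 ± 7.53 CPM in FFD mice (SD, n = 6) and 44.0 ± 14.9 CPM in CD mice (SD, n = 5). The log2 fold change was -1.99 with an SE of 0.40 (95% interval -2.85 to -1.13, edgeR adjusted p = 0.00288), a level 3.98-fold lower in FFD mice. Nox1 also varied more among FFD mice, with 7.12-fold between the highest and the lowest, than among CD mice, with 2.21-fold, a difference in spread that was not tested. The lowest level rested on 60 counts (FFD mouse 6) and the highest on 1490 (CD mouse 3). In GENCODE M21, 12.1% of the Nox1 exon bases are shared with Cstf2, a gene of mRNA 3′ end processing, which itself fell (log2 fold change -0.33, edgeR adjusted p = 0.0066).

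The stretch of 250 bases before the RefSeq start of Nox1 (GRCm38.p6, chrX:134111855-134112104, minus strand) is printed because Nox1 was the member that fell most. It lies inside the longer span of Nox1 given above, which begins farther upstream, and it holds no annotated exon. Capitals mark matches to the GATA motif (GATAA) and to the NF-kB motif, each on either strand.
Nox1 upstream: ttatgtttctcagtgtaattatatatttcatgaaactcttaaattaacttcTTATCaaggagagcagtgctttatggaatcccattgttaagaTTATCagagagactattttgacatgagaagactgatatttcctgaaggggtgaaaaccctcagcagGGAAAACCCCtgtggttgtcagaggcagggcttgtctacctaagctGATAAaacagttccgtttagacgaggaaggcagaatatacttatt
The 3 GATA matches begin 199, 157 and 45 bases before the start, and the NF-kB match begins 91 bases before it. Of 32851 windows of the same length, 22.6% held at least 1 GATA match, 0.712% held at least 3 and 7.25% held an NF-kB match. The share with at least 3 was counted after the matches had been seen. These are matches of letters and not measured binding.

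Noxa1 (2, 25085667 to 25095149, minus strand) had a lowest value of 44.4, a median of 52.6 and a highest value of 55.4 CPM in FFD mice. The CD mice had 66.7, 69.7, 67.9, 69.6 and 55.3 CPM. The diets overlapped through CD mouse 5 alone, which lay just under the highest FFD mouse. Its log2 fold change was -0.36 with an SE of 0.08 (edgeR adjusted p = 0.00373). The change of the activator was called but was small beside that of Nox1.

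Noxo1 (17, 24696234 to 24700529, plus strand) had a lowest value of 104, a median of 111 and a highest value of 138 CPM in FFD mice. The CD mice had 85.4, 86.6, 89.4, 88.5 and 97.9 CPM, all below the lowest FFD mouse. Between the diets the log2 fold change was 0.39 with an SE of 0.08 (edgeR adjusted p = 0.00367), a level 1.31-fold higher in FFD mice. Noxo1 is the member whose reads are least certain, since 70.4% of its exon bases overlap Tbl3, a gene of ribosome assembly on the other strand, and whether counting used strand was not given in the sources used here. Tbl3 averaged 36.4 CPM in FFD mice and 43.2 CPM in CD mice, so it moved the other way (log2 fold change -0.25, edgeR adjusted p = 0.016). The Tbl3 call was lost in 4 of its 20 alternatives, 1 of them without CD mouse 5 (adjusted p up to 0.0695 over all alternatives), while that of Noxo1 was lost in none.

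Cyba (8, 122424776 to 122432930, minus strand), the subunit that stabilizes Nox1 in the membrane, had a lowest value of 73.3, a median of 79.5 and a highest value of 104 CPM in FFD mice. The CD mice lay between 72.0 and 94.1 CPM, within nearly the same range. Its log2 fold change was 0.01 with a 95% interval of -0.21 to 0.22 (edgeR adjusted p = 0.967). Both ends of this interval lie nearer to 0 than the change of Noxo1, and the sign of its estimate depended on the normalization.

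Since members of 1 complex moved in opposite directions, their levels were also set against each other within each mouse, as CPM per kb of the principal transcript. The ratio of Noxo1 to Nox1 had a median of 16.2 (range 4.98 to 47.2) in FFD mice and 2.25 (1.55 to 3.66) in CD mice. The ratio of Noxo1 to Noxa1, its partner, had a median of 1.70 (1.43 to 1.83) in FFD mice and 0.925 (0.898 to 1.28) in CD mice. Both ranges were apart between the diets. The ratio of Noxa1 to Nox1 was 3.48 to 25.9 in FFD mice and 1.63 to 3.55 in CD mice, ranges that just met.

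**Figure D2:**
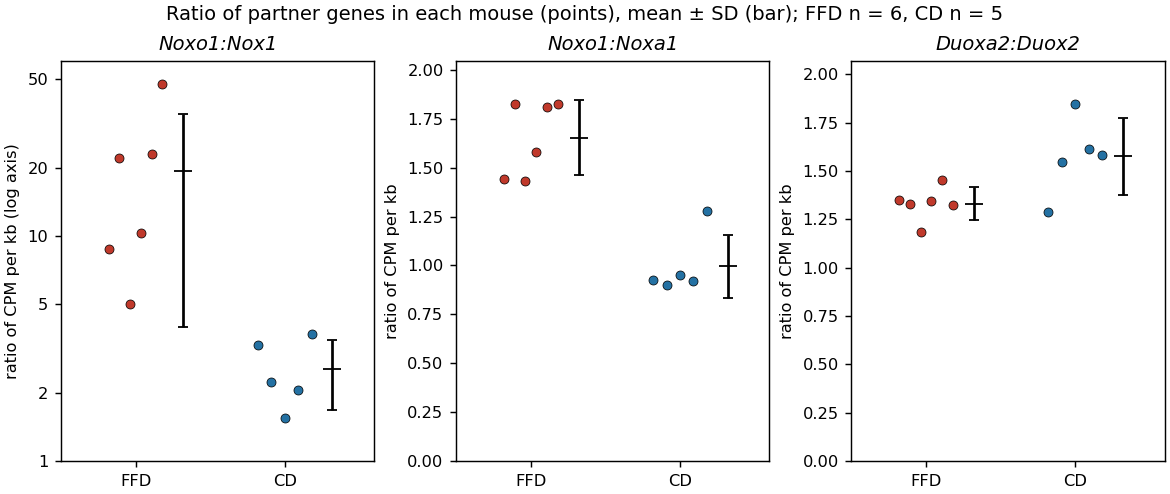
Ratio of CPM per kb of partner genes in each mouse, FFD (red, 6 mice) left of CD (blue, 5 mice), with mean and SD as a black bar; the left panel has a log axis. The ratio of Noxo1 to Nox1 and that of Noxo1 to Noxa1 lie above the whole CD range in each of the FFD mice, while Duoxa2 to Duox2 overlaps.

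Duox2 (2, 122279247 to 122298449, minus strand) was the most highly counted of the 7 genes. It had a lowest value of 479, a median of 716 and a highest value of 1022 CPM in FFD mice. The CD mice had 329, 221, 358, 329 and 465 CPM, all below the lowest FFD mouse, with CD mouse 5 close under FFD mouse 3. The log2 fold change was 1.08 with an SE of 0.21 (95% interval 0.62 to 1.54, edgeR adjusted p = 0.00262), a level 2.12-fold higher in FFD mice.

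Duoxa2 (2, 122298900 to 122302885, plus strand) lies head to head with Duox2, with 450 bases between the genes. It had a lowest value of 157, a median of 265 and a highest value of 411 CPM in FFD mice. The CD mice had 118, 94.7, 183, 147 and 204 CPM, so the diets overlapped and 4 of 6 FFD mice were above all CD mice. The log2 fold change was 0.85 with an SE of 0.24 (edgeR adjusted p = 0.0165), a level 1.80-fold higher in FFD mice. Of its exon bases 42.8% overlap Duoxa1, the maturation factor of Duox1, on the other strand. Duoxa1 was counted at 3.40 to 10.49 CPM in FFD mice and 2.59 to 5.66 CPM in CD mice and did not pass (log2 fold change 0.54, edgeR adjusted p = 0.136), though it did without FFD mouse 3 (adjusted p = 0.0453). Per kb it averaged 4.10 in FFD mice and 2.83 in CD mice, far under Duoxa2 with 169 in FFD mice and 93.8 in CD mice.

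The 2 genes of the pair were tied together mouse by mouse. After subtracting the mean of each diet from log2 CPM, Duox2 and Duoxa2 correlated with r = 0.961 and rho = 0.955 over 11 mice, and with r = 0.937 without the 2 mice farthest from the median of Duox2. This is given as a description, since both levels of a mouse share 1 library, its depth and its mix of cells. The ratio of Duoxa2 to Duox2 per kb had a median of 1.34 (1.18 to 1.45) in FFD mice and 1.58 (1.29 to 1.85) in CD mice. The ranges overlapped through CD mouse 1 alone, and the other CD mice lay above all FFD mice, a difference that was not tested.

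The interval between these genes is shown because it lies before the starts of 2 members that moved together. The 250 bases before the RefSeq start of Duoxa2 (GRCm38.p6, chr2:122298650-122298899, plus strand) hold no annotated exon and lie wholly between the genes. Capitals mark matches to the TATA box (TATAAA) and to the AP-1 motif (TGANTCA), each on either strand.
Duoxa2 upstream: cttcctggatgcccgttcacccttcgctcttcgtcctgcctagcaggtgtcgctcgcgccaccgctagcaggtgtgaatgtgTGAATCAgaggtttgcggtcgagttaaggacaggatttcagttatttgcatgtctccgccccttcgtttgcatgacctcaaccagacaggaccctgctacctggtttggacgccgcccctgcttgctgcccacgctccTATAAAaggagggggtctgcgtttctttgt
The TATA box match begins 30 bases before the start of Duoxa2 and the AP-1 match 168 bases before it. Of 32851 windows of this length, 12.4% held the TATA box letters and 6.75% the AP-1 letters. Letters for the STAT motif (TTCNNNGAA, found in 7.02% of the windows) and the TCF/LEF motif (CTTTGA, in 13.8%) were searched as well and were not in the Duoxa2 or Nox1 windows. The sequences are from RefSeq, where 6 of the 7 genes matched a window, all but Nos2.

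Nos2 (11, 78920787 to 78960254, plus strand) rose most of the 7 genes. It had a lowest value of 80.5, a median of 151 and a highest value of 345 CPM in FFD mice. The CD mice had 32.01, 19.0, 45.7, 54.6 and 63.9 CPM, all below the lowest FFD mouse. The log2 fold change was 1.93 with an SE of 0.39 (95% interval 1.10 to 2.77, edgeR adjusted p = 0.00285), a level 3.82-fold higher in FFD mice. FFD mouse 5 stood far above the rest, and without it the log2 fold change was 1.57 and the call remained.

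Nos2 followed the Duox2 pair across mice, with r = 0.932 and rho = 0.873 against Duox2 and r = 0.93 and rho = 0.918 against Duoxa2, after subtracting diet means over 11 mice (r = 0.885 and 0.918 without the 2 farthest mice). Noxo1 tracked them less closely, with r = 0.778 and rho = 0.782 against Duox2 (r = 0.711 without the 2 farthest mice). Nox1 ran the other way, with r = -0.669 and rho = -0.573 against Duox2 (r = -0.528 without the 2 farthest mice). With its own activator Noxa1 it had r = 0.241 and rho = 0.236 (r = 0.575 without the 2 farthest mice), and whether this differs from the r of the Duox2 pair was not tested.

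**Figure D3:**
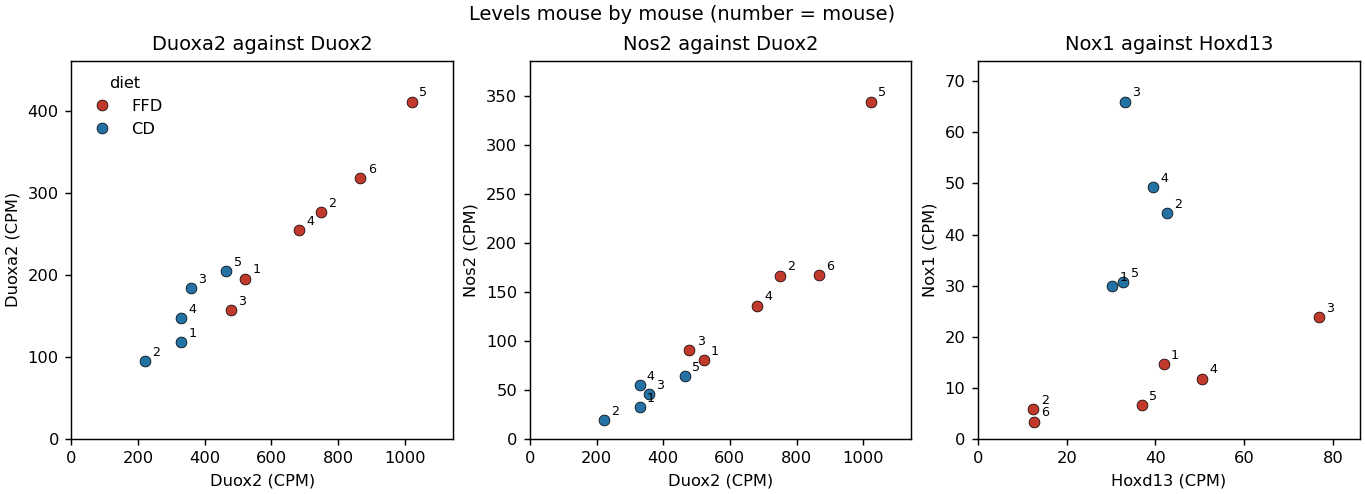
CPM of Duoxa2 against Duox2, of Nos2 against Duox2 and of Nox1 against Hoxd13, 1 point per mouse with its number (red, FFD; blue, CD). FFD mouse 5 is highest in Duox2, Duoxa2 and Nos2. In the right panel every FFD mouse lies below every CD mouse in Nox1. The CD mice span 30.2 to 42.6 CPM of Hoxd13, with 2 FFD mice below this range and 2 above it.

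Per kb of the principal transcript the order of the levels differed between the diets. In FFD mice it ran from Duoxa2 (mean 169 CPM per kb) over Duox2 (125), Cyba (114), Noxo1 (52.4), Nos2 (47.9) and Noxa1 (31.8) to Nox1 (4.28). In CD mice it ran from Cyba (113) over Duoxa2 (93.8), Duox2 (59.3), Noxa1 (40.7), Noxo1 (40.02) and Nox1 (17.2) to Nos2 (12.6). Neighbours in these orders mostly overlapped between mice. In FFD mice the ranges were apart only between Cyba and Noxo1 and between Noxa1 and Nox1, and in CD mice only between Noxo1 and Nox1. Per kb of merged exons Duoxa2 came before Cyba in CD mice, and the order of the members in FFD mice was the same.

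Among the other NADPH oxidase genes the phagocyte oxidase was at a low level. Of 12 genes listed, 11 were in the table and 9 were tested, of which 3 rose and 6 did not pass, with a median log2 fold change of 0.42. Over all tested genes 18.2% were called as higher and 18.6% as lower. Cybb, the catalytic gene of phagocytes, had 1.31 to 3.46 CPM in FFD mice and 0.995 to 1.74 CPM in CD mice (log2 fold change 0.76, edgeR adjusted p = 0.0396), a call lost in 11 of 20 alternatives, among them the omission of FFD mouse 1, 2, 5 or 6 or of CD mouse 1, 2 or 3 (adjusted p up to 0.217 over all alternatives). Rac1, the GTPase of the complex, rose by 0.24 on the log2 scale (552 CPM on average in FFD mice and 467 CPM in CD mice, edgeR adjusted p = 0.0186), a call lost in 3 alternatives. Of the Rac1 exon bases 51.4% overlap another gene, Daglb, so the origin of its reads is uncertain too. Arhgef7, an exchange factor that loads Rac with GTP, rose by 0.42 (edgeR adjusted p = 0.00221) and kept its call in all 20.

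Ncf1, the phagocyte counterpart of Noxo1, was at 0.515 CPM per kb on average in FFD mice and 0.455 in CD mice, and Cybb at 0.467 in FFD mice and 0.280 in CD mice, all under the level of Nox1 per kb in either diet. Ncf1 (log2 fold change 0.16, edgeR adjusted p = 0.57), Ncf4 (0.14, 0.718), Rac2 (0.51, 0.0984) and Duox1 (0.42, 0.326) did not pass, and each averaged under 3 CPM. Rac2 passed without CD mouse 4 (adjusted p = 0.0419). Nox3 with 0 to 4 counts and Nox4 with 2 to 22 counts per mouse were under the filter.

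**Figure D4:**
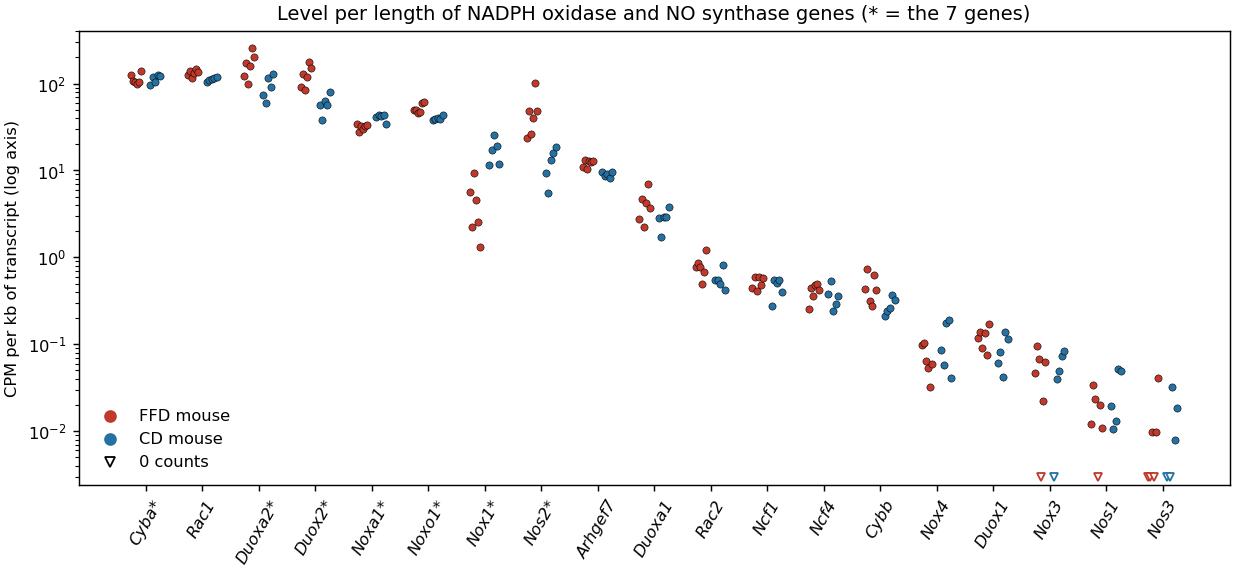
CPM per kb of the principal transcript (log axis) of NADPH oxidase and nitric oxide synthase genes in each mouse, FFD (red) left of CD (blue) for each gene, genes in the order of the CD mean; open triangles stand for 0 counts. Nox1 is lower in the FFD mice than in the CD mice, and Cybb, Nox4, Nox3, Nos1 and Nos3 lie well below the 7 genes.

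Beside Nos2, the genes of its cofactor moved in both directions. Of 8 tested genes of nitric oxide synthases, their cofactor and their partners, 3 rose, 3 fell and 2 did not pass, with a median log2 fold change of -0.10. Among all tested genes 18.2% were called as higher and 18.6% as lower. Gch1, the rate-limiting enzyme of tetrahydrobiopterin synthesis, had 45.1 to 93.3 CPM in FFD mice and 31.7 to 46.8 CPM in CD mice (log2 fold change 0.94, edgeR adjusted p = 0.00186). Gchfr, which binds Gch1 and regulates it, rose by 0.86 on the log2 scale (edgeR adjusted p = 0.00968) at a low level of 5.38 CPM on average in FFD mice and 2.93 CPM in CD mice. The later synthesis enzyme Spr fell by 0.28, and Qdpr, which regenerates the cofactor, fell by 0.38 (edgeR adjusted p = 0.00572 and 0.00335). Pts, the enzyme between Gch1 and Spr, did not pass (log2 fold change -0.01, edgeR adjusted p = 0.949).

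Gch1 was also close to the members mouse by mouse, with r = 0.924 and rho = 0.927 against Duox2 and r = 0.829 and rho = 0.845 against Nos2 over 11 mice after subtracting diet means (r = 0.951 and 0.844 without the 2 farthest mice). Nostrin, known for trafficking of the endothelial synthase Nos3, rose by 0.77 (edgeR adjusted p = 0.00207), and Nosip, another partner of that synthase, did not pass (log2 fold change -0.19, edgeR adjusted p = 0.111). The synthases Nos1, with 0 to 16 counts per mouse, and Nos3, with 0 to 3, were under the filter, so Nos2 was the one nitric oxide synthase tested.

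**Figure D5:**
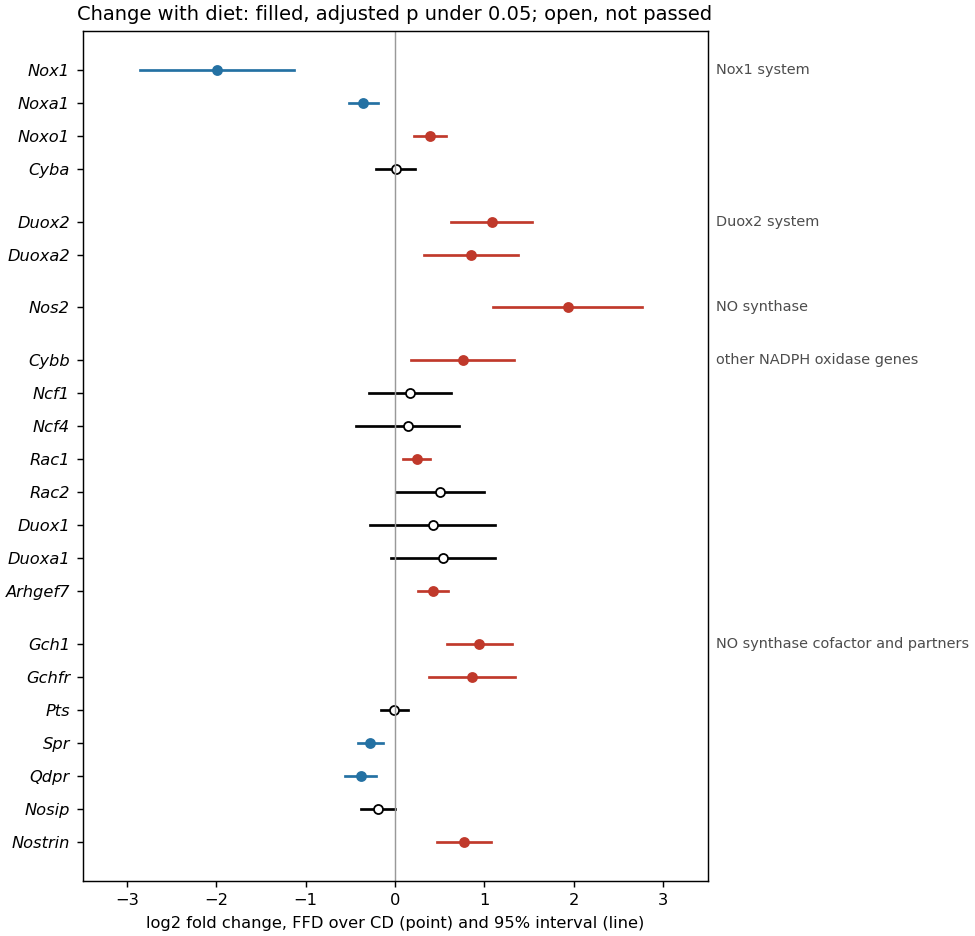
Log2 fold change, FFD over CD, with 95% interval for the 7 genes and for other tested NADPH oxidase and nitric oxide synthase genes; filled points passed an adjusted p of 0.05 (red, higher in FFD; blue, lower in FFD) and open points did not. Nox1 and Nos2 lie farthest from 0, on opposite sides.

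Genes that supply or use arginine, the substrate of Nos2, gave 1 higher and 3 lower of 9 tested genes, with a median log2 fold change of -0.05. The shares over all tested genes were 18.2% higher and 18.6% lower. Ddah1, which degrades inhibitors of nitric oxide synthases, rose by 0.43 (edgeR adjusted p = 0.0208), a call lost in 3 alternatives, 1 of them without CD mouse 4 (adjusted p up to 0.0736). Odc1, which makes polyamines from the arginine product ornithine, fell by 0.43 (edgeR adjusted p = 0.00512). Ass1 and Asl, which rebuild arginine from citrulline, fell by 0.57 and 0.24 (edgeR adjusted p = 0.0232 and 0.0242), with Ass1 losing its call in 3 and Asl in 7 of 20 alternatives. These were for Ass1 the omission of FFD mouse 2, CD mouse 3 or CD mouse 4 (adjusted p up to 0.0685), and for Asl those of FFD mouse 5 and CD mouse 2, 4 or 5 among others (adjusted p up to 0.103). Arg1 and Arg2, the arginases, did not pass, with log2 fold changes of 0.21 and 0.48 (edgeR adjusted p = 0.63 and 0.214).

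Of 17 genes that remove superoxide and peroxides, 5 rose, 5 fell and 7 did not pass, with a median log2 fold change of -0.06. Over all tested genes the shares called were 18.2% higher and 18.6% lower. Prdx6, a cytosolic peroxidase, rose most clearly and averaged 1261 CPM in FFD mice and 637 CPM in CD mice (log2 fold change 0.99, edgeR adjusted p = 0.00112). Prdx4 of the endoplasmic reticulum, Prdx3 of mitochondria and Gpx4, which reduces lipid peroxides, fell by 1.05, 0.31 and 0.37 (edgeR adjusted p = 0.0026, 0.0056 and 0.00541). Of the superoxide dismutases, the extracellular Sod3 rose most of the 17 genes by fold, at a low level of 2.99 CPM on average in FFD mice and 1.01 CPM in CD mice (log2 fold change 1.57, edgeR adjusted p = 0.00684), and Sod1 and Sod2 did not pass (log2 fold change -0.18 and -0.11, edgeR adjusted p = 0.0698 and 0.145). Lpo, a secreted peroxidase that uses hydrogen peroxide, was at 14.95 CPM on average in FFD mice and 11.7 CPM in CD mice and did not pass (log2 fold change 0.36, edgeR adjusted p = 0.153).

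Receptors and signalling genes known to induce Duox2 and Nos2 gave 10 higher and 7 not passed of 17 tested genes, with a median log2 fold change of 0.34. Among all tested genes 18.2% were called as higher. Il22ra1, a receptor subunit for interleukin 22, had 20.8 to 31.6 CPM in FFD mice and 13.5 to 16.2 CPM in CD mice (log2 fold change 0.86, edgeR adjusted p = 0.000863). Ifngr1, a receptor subunit for interferon gamma, rose by 0.72 (edgeR adjusted p = 0.00128), and the kinases Jak2 and Jak1 by 0.45 and 0.36 (edgeR adjusted p = 0.00152 and 0.00219). Irf1, a transcription factor that acts below the interferon receptor, did not pass (log2 fold change 0.15, edgeR adjusted p = 0.504).

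Of 8 epithelial defence genes that the same signals are known to induce, 3 rose and 5 did not pass, with a median log2 fold change of 0.39. The share over all tested genes was 36.8% called, with 18.2% as higher. Saa1 and Saa2, serum amyloid genes, rose by 1.40 and 1.55 (edgeR adjusted p = 0.0036 and 0.00424), and Pigr, the transporter of secretory antibodies, by 0.41 (edgeR adjusted p = 0.00633). Reg3b and Reg3g, antimicrobial lectins, were at 16471 and 6316 CPM on average in FFD mice and at 15592 and 6004 CPM in CD mice, and Lcn2, an iron-sequestering protein, at 2.63 CPM in FFD mice and 2.35 CPM in CD mice. These 3 did not pass (edgeR adjusted p = 0.828, 0.855 and 0.653), nor did Saa3 and Ido1.

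Markers of position in the epithelium moved with the members. The 6 markers of surface colonocytes summed to 12061 to 21906 CPM in FFD mice and 7142 to 10207 CPM in CD mice, and 5 of 6 rose. The 8 markers of the crypt base and of cell division summed to 255 to 607 CPM in FFD mice and 582 to 828.8 CPM in CD mice, and 6 of 8 fell. The surface markers Lypd8 and Slc26a3 rose by 1.18 and 1.34 on the log2 scale (edgeR adjusted p = 0.000761 and 0.00112). Pcna, a marker of cell division, fell by 0.54 (edgeR adjusted p = 0.00222). Over all tested genes 18.2% were called as higher and 18.6% as lower. Duox2 had r = 0.852 against Krt20, a surface keratin, and 0.85 against Car4, over 11 mice after subtracting diet means. Without the 2 farthest mice these were 0.888 and 0.853. For Nos2 they were 0.765 and 0.767, and 0.807 and 0.816 without the 2 farthest mice. Krt20 was at 695 CPM in FFD mouse 3, the lowest FFD value, and at 760 CPM in CD mouse 5, the highest CD value. FFD mouse 3 had 479 CPM of Duox2 and 90.8 CPM of Nos2, and CD mouse 5 had 465 and 63.9 CPM. Smoc2, a marker of the crypt base, was at 9.05 and 12.9 CPM in FFD mice 1 and 3 and at 7.86 CPM in CD mouse 5, while Nox1 was at 14.5 and 23.8 CPM in those FFD mice and at 30.6 CPM in that CD mouse. Against Smoc2, Nox1 had r = 0.674 and rho = 0.591 over 11 mice after subtracting diet means, and r = 0.342 without the 2 farthest mice. Against 4 other crypt markers the r over 11 mice was 0.742 for Ephb3, 0.67 for Mki67, 0.338 for Axin2 and 0.311 for Lgr5, and without the 2 farthest mice it was 0.188, 0.096, -0.516 and -0.179 in the same order. The relation to Smoc2, Ephb3 and Mki67 thus rests largely on those mice. Against the surface markers Krt20 and Car4, Nox1 had r = -0.851 and -0.811 (rho = -0.736 and -0.755). Without the 2 farthest mice these r values were -0.751 and -0.743. The part of these markers in the changes of the members was not tested.

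Nox1 also followed the markers of the distal colon, where it is known to be highest. Hoxd13 had 12.5 to 76.8 CPM in FFD mice and 30.2 to 42.6 CPM in CD mice, and Hoxb13 had 84.8 to 178 CPM in FFD mice and 102 to 164 CPM in CD mice. Neither passed the test (log2 fold change 0.11 and -0.09, edgeR adjusted p = 0.846 and 0.746). After subtracting diet means over 11 mice, Nox1 had r = 0.839 and rho = 0.855 against Hoxd13 and r = 0.768 and rho = 0.827 against Hoxb13 (r = 0.6 and 0.681 without the 2 farthest mice). FFD mice 2 and 6 had the lowest Hoxd13, 12.5 CPM each, and the 2 lowest Nox1 levels of all mice, 5.79 and 3.35 CPM. FFD mice 1 and 5 had Hoxd13 of 41.8 and 37.0 CPM, within the range of the CD mice, and Nox1 of 14.5 and 6.53 CPM, below that of the CD mice. The part of position along the colon in the change of Nox1 was not tested.

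Of the tested genes listed as immune cell markers, Ly6g had the largest difference between the diets. It was at 63.6 to 217 CPM in FFD mice and 19.9 to 60.8 CPM in CD mice (log2 fold change 2.20, edgeR adjusted p = 0.00134), while the other neutrophil markers together were at 4.08 to 14.1 CPM in FFD mice and 1.58 to 6.16 CPM in CD mice. S100a8, an abundant neutrophil gene, averaged 2.46 CPM in FFD mice and 0.877 CPM in CD mice. Of 5 neutrophil markers tested 2 rose, and of 13 macrophage markers 3 rose, beside 18.2% of all tested genes called as higher. The macrophage marker Mrc1 averaged 4.11 CPM in FFD mice and 1.40 CPM in CD mice, and the diets did not overlap. Its log2 fold change was 1.54 (edgeR adjusted p = 0.000863), and its call remained in all 20 alternatives. The calls of S100a8 and of the macrophage gene C1qb were each lost in 8 of 19 alternatives, for either gene by omitting FFD mouse 2 or 5 or CD mouse 1 or 3, for S100a8 also CD mouse 2 or 4 and for C1qb also FFD mouse 4 (adjusted p up to 0.105 for S100a8 and 0.0686 for C1qb). The part of these immune cell markers in the rise of Nos2 was not tested. Csf1r, which marks macrophages, averaged 2.49 CPM in FFD mice and 2.01 CPM in CD mice and did not pass (log2 fold change 0.32, edgeR adjusted p = 0.219).

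The genes whose levels were most like those of Nox1, Duox2 and Nos2 were sought among 8920 tested genes with a mean of at least 10 CPM, by Pearson's r of log2 CPM over 11 mice after subtracting diet means. For Nox1 they were Fundc2 (r = 0.958, rho = 0.9), Cd81, a tetraspanin (0.937, 0.855), Paics, an enzyme of purine synthesis (0.934, 0.836), Rnaseh2a, a ribonuclease subunit (0.931, 0.891), and Trmt1, a tRNA methyltransferase (0.929, 0.855). For Duox2 they were Trim15 (r = 0.969, rho = 0.855), its neighbour Duoxa2 (0.961, 0.955), Gpr39, a zinc-sensing receptor (0.961, 0.909), Clca4b (0.957, 0.927) and Stom, a membrane protein (0.953, 0.918). For Nos2 they were Pim1, a kinase (r = 0.977, rho = 0.991), Arid5a, which stabilizes inflammatory mRNAs (0.954, 0.964), Casp4, an inflammatory caspase (0.953, 0.936), Tnfrsf1b, a receptor for tumour necrosis factor (0.949, 0.936), and Mindy3 (0.94, 0.855). Without the 2 farthest mice these r values were 0.798 to 0.991. They were the highest of many, and with 11 mice they serve as a description.

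The changes of these genes with diet were of different sizes. Of the genes most like Nos2, Casp4 rose by 0.85 on the log2 scale (edgeR adjusted p = 0.00196), whereas Pim1 (log2 fold change 0.50, edgeR adjusted p = 0.0569) and Arid5a (0.15, 0.569) did not pass. Of those most like Duox2, Clca4b rose by 2.37 and Trim15 by 1.496 (edgeR adjusted p = 0.00253 and 0.00271), and Gpr39 by 0.40 (edgeR adjusted p = 0.0148). All 5 genes most like Nox1 fell, by 0.42 to 0.90 on the log2 scale, less than Nox1 itself.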

How the data were processed

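RNA of colonic epithelial cells was measured in 6 FFD and 5 CD mice, 1 library per mouse. The authors sequenced poly(A) RNA as single reads of 59 bp, used the Qiagen CLC Workbench 10.0.1 for trimming and for mapping to GRCm38, and deposited the raw count of each gene. FastQC, R 3.5.1 and DESeq2 1.22.2 stand in the submitters' processing notes. Which annotation release was used, whether strand was used and how reads with several matches were counted was not given in the sources used here.

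In R 4.3.3, edgeR 4.0.16 was used to remove genes of low count (filterByExpr, minimum count 10, minimum total 15), to compute TMM factors (0.893 to 1.05 in FFD and 1.03 to 1.08 in CD mice) and to fit diet alone with the quasi-likelihood test, with Benjamini-Hochberg adjustment and a threshold of 0.05. The p-values measure the spread between mice, and each library was 1 replicate, since within a diet all pairs of libraries differed beyond sampling noise (lowest chi-square per degree of freedom 13). DESeq2 1.42.0, limma-voom of limma 3.58.1, other size factors, no TMM, no or a stricter filter, a robust fit, a replicate block, thinning to 10374154 counts and leaving out each mouse were the 20 alternatives. The procedure was also tested on simulated data.

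Gene names were matched to GENCODE M21, which gave 91.4% of names a position and supplied transcript lengths. Levels per kb used the principal transcript in place of the planned merged exons, which long untranslated ends extend, and both were computed. Correlations used log2 CPM with a prior count of 2. The 7 genes, the gene lists and the tests were chosen with earlier results of these data known. The text names all 7 genes, tested genes of both enzyme families, up to 4 called genes with the smallest p of each other list, and the 5 genes most like Nox1, Duox2 and Nos2. List genes that did not pass, the Sod genes, Ass1 and Asl, Tbl3, Cstf2 and single markers were named after their values were seen. Some genes of the lists are not reported here but are counted in the totals of their lists.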

Additional observations from a re-analysis of the deposited data

Results flagged for a closer look

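In 4 of 26 groups of 5 or 6 mice searched (the levels and partner ratios of the 7 genes, by diet), 1 mouse stood apart by Dixon's 95% criterion, which chance alone meets in about 1 group in 20. In FFD mouse 5, Nos2 was at 345 CPM, with the next FFD mouse at 167 CPM (gap over range 0.673), and the ratio of Nos2 to Duox2 per kb was 0.565, with the next at 0.373 (0.629). In CD mouse 5, Noxa1 was at 55.3 CPM, with the next CD mouse at 66.7 CPM (0.796), and the ratio of Noxo1 to Noxa1 per kb was 1.28, with the next at 0.952 (0.858). The log2 fold change of Nos2 was 1.57 without FFD mouse 5 and that of Noxa1 was -0.40 without CD mouse 5, and both calls remained.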

How the results depend on the processing

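The 6 called members kept their direction and their call in 120 of 120 values, 20 alternatives each. When 1 mouse was left out, the log2 fold change ranged from -2.39 (without FFD mouse 3) to -1.79 for Nox1, -0.40 to -0.32 for Noxa1, 0.34 to 0.44 for Noxo1, 0.95 to 1.24 for Duox2, 0.68 to 1.002 for Duoxa2 and 1.57 to 2.13 for Nos2. The Cyba log2 fold change turned negative without TMM (-0.15), with thinning (-0.00769) and with the replicate block (-0.0583), and ranged from -0.060 to 0.054 when 1 mouse was left out, never passing. Without TMM the median of all genes was -0.19, against -0.03, Ncf4 was at -0.015, and 25.2% of 6499 called genes were higher in FFD mice, against 49.5% of 5532. With 1 mouse left out, 4264 to 6079 genes were called. The other NADPH oxidase genes called numbered 1 without TMM, 1 without the filter and 1 with the replicate block, and 2 to 4 with 1 mouse left out. Arginine genes called ranged from 1 (without CD mouse 4) to 4, superoxide and peroxide genes from 7 to 11, and heme peroxidases from 0 to 1 (without CD mouse 1); of 2 heme peroxidases tested, edgeR, DESeq2 and limma-voom each called 0, with 0 at an unadjusted p under 0.05. The replicate numbers do not pair the mice: same-numbered mice had r of -0.28 to 0.23, and 2 of 5 CD mice were most like their own number. With the replicate block 3782 genes were called, with 2 arginine and 6 superoxide and peroxide genes. The cause of these differences was not tested. Genes under the filter, among them Nox4 and Nos3, were not tested in the fit reported here.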
